A study of Mus musculus with 4 samples.

Results

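The genes described here encode the proteins of the large subunit of the cytosolic ribosome, taken by name as every gene of the screen table that begins with Rpl or Rplp followed by a digit. The name rule found 54 of the 20380 genes in the table, and it used no measured value. Of these, 46 are the canonical large subunit genes and 8 are like-named genes, paralogs and copies, which are reported apart.

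The screen was made in the mouse embryonic stem cell line E14 with the genotype MERVL-tdTomato, a red fluorescent reporter of the endogenous retrovirus MERVL, which marks the 2-cell embryo and the few cultured cells that resemble it. Both groups carried the reporter and a lentiCRISPRv2 library of 130209 guides, delivered by lentivirus over 24 h with polybrene at 4 ug/mL and followed by puromycin at 2 ug/mL over 48 h. The MERVL-positive group is the roughly 500000 cells sorted for the reporter at day 5, and the other group is named total cells, with 2 libraries of guide DNA per group. The 2 libraries of a group are called sequencing repeats, and none is labelled as a culture of its own. Spread from culture to culture may thus be missing from the p-values of the authors' table. The stated aim was to find what activates MERVL.

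The authors' deposited table holds 1 comparison of the groups per gene and no value per library. Depth is therefore unknown, and a spread between libraries cannot be given. The log2 fold change is read here as MERVL-positive over total, so that a negative value means fewer guides in the sorted cells. This reading is likely but not settled, because no header names the numerator. Its basis is the study's title, in which deficiency of Ints7 is an activator, and the place of Ints7 in the authors' deposited table, at rank 157 for positive and 18586 for negative change. The log2 fold change of Ints7 was only 0.14 in the authors' deposited table, within the quartiles of all genes, -0.33 and 0.26. If the ratio runs the other way, all directions given here turn round. Sorted cells numbered 3.84 per library guide, or 23.0 per gene with 6 guides. Guide abundance cannot check the cell type against its markers, since no expression was measured.

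The large subunit joins amino acids at the peptidyl transferase centre, which is made of rRNA, and lets the new chain out through an exit tunnel lined by rRNA and a few proteins. A lateral stalk of acidic proteins recruits the elongation factors. Loss of most large subunit proteins stops assembly of the subunit, and dividing cells then lose translation and growth. Unassembled 5S RNP, made of 5S rRNA with the proteins of Rpl5 and Rpl11, binds and inhibits MDM2 and so stabilises p53. In mouse embryonic stem cells, disturbed rRNA synthesis has been reported to favour the 2-cell-like program.

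Most large subunit genes had fewer guides in MERVL-positive than in total cells, and none passed the false discovery rate threshold. The median log2 fold change of the 46 canonical genes was -0.46, and the median of all 20380 genes was -0.021. The values ran from -2.51 for Rpl37a to 0.45 for Rpl19, with quartiles of -0.88 and -0.23. A log2 fold change below 0 was held by 42 of the 46 genes, or 91.3%, against 52% of all genes. A value below -1, that is under 0.5 of the level in total cells, was held by 10 of the 46, or 21.7%, against 3.29% of all genes. No canonical gene had a value above 1, but such values were rare, at 177 of all 20380 genes. These counts and medians are descriptions, and no test was run over the list. The median of the 998 single non-targeting guides was 0.019. Fewer knockout cells becoming MERVL-positive and fewer MERVL-positive knockout cells surviving or dividing up to the sort cannot be told apart in these values. A loss of knockout cells alike in both groups would lower both, and whether it cancels in the ratio was not tested. Such a loss was not measured, and guides left scarce by it would make the ratio less certain.

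**Figure D1:**
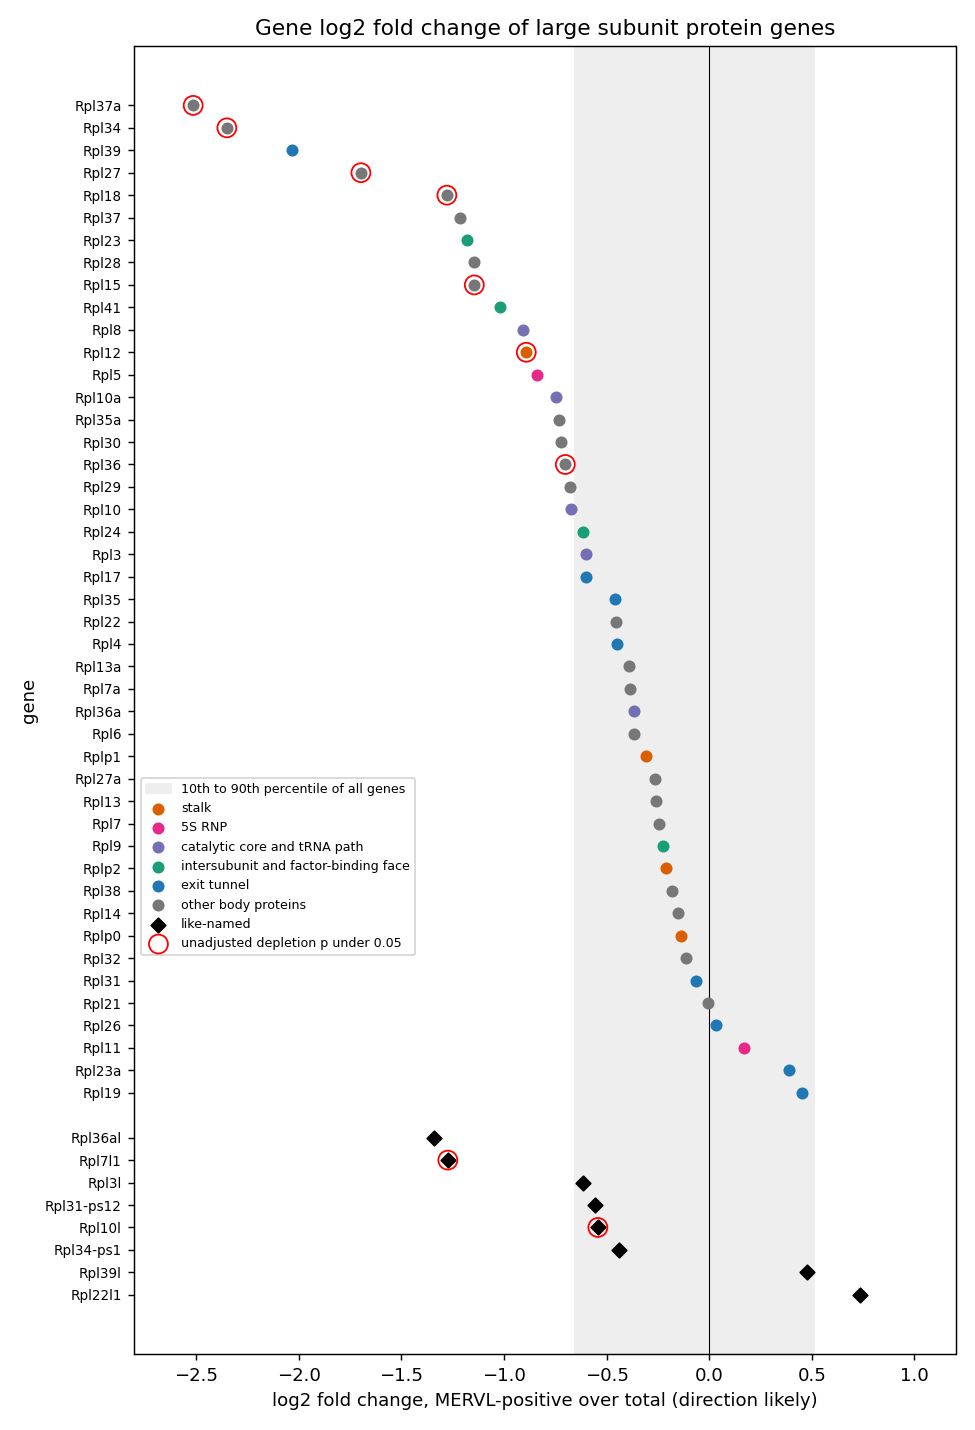
Each point is 1 gene, 45 canonical and 8 like-named, with its log2 fold change on the horizontal axis, coloured by position in the subunit, with like-named genes as diamonds at the bottom and red rings for an unadjusted depletion p under 0.05. The grey band holds the 10th to 90th percentile of all genes. The points of 41 of these 45 canonical genes lie left of 0, and only Rpl26, Rpl11, Rpl23a and Rpl19 lie right of it.

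At a false discovery rate of 0.05, no large subunit gene was called in the authors' deposited table in either direction. The share of all genes called there was 0.00491% for depletion and 0% for enrichment in the authors' deposited table. The lowest depletion false discovery rate of a canonical gene in the authors' deposited table was 0.716, for Rpl37a. By unadjusted depletion p, in the authors' deposited table, 7 of 46 canonical genes lay under 0.05, or 15.2%, against 5.07% of all genes. For enrichment the count was 0 of 46, against 5.02% of all genes, and the lowest enrichment p of a canonical gene in the authors' deposited table was 0.119, for Rplp1.

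The 7 genes were Rpl37a, Rpl27, Rpl12, Rpl15, Rpl36, Rpl34 and Rpl18, with false discovery rates of 0.716 for Rpl37a and of 0.846 to 0.975 for the others in the authors' deposited table. All but Rpl12 encode proteins of the subunit's body with no counterpart in the bacterial ribosome. Stretches around the transcription start of 6 of them are shown, because the members share a feature there that the name rule did not use. Many ribosomal protein mRNAs are known to begin with a pyrimidine tract, the TOP element, through which mTORC1 regulates their translation. Capitals mark each C followed by at least 6 further C or T, wherever it lies, so a marked run need not be a TOP element. The stretches are 70 bases, 40 before the RefSeq start in GRCm38.p6 and 30 from it, on the strand of the gene. That of Rpl34 is for 1 of 2 listed starts.
Rpl37a: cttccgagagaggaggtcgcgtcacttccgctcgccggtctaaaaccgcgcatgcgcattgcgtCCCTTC
Rpl27: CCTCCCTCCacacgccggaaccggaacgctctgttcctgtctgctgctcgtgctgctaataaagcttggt
Rpl12: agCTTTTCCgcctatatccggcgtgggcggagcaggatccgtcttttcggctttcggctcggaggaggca
Rpl15: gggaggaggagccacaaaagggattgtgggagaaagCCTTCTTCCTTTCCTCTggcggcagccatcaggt
Rpl34: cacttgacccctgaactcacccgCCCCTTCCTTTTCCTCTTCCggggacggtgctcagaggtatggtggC
Rpl18: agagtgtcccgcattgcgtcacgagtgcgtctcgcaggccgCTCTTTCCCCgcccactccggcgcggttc

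These lie at chr1:72711220-72711289, chr11:101442205-101442274, chr2:32961672-32961741, chr14:18270957-18271026, chr3:130730308-130730377 and chr7:45718031-45718100, in that order, on the plus strand except for Rpl15 and Rpl34. The marked run crosses the listed start in Rpl15 and, at the start shown, in Rpl34. It lies just after the start in Rpl18 and 24 bases after it in Rpl37a. At the other listed start of Rpl34 the run lies wholly before that start, from 13 to 6 bases before it. In Rpl27 and Rpl12 the printed run lies wholly before the listed start, ending 32 bases before it, and is thus outside an mRNA that begins there. Rpl12 has a further run 39 bases after the start, past the printed bases. In Rpl37a and at the end of the Rpl34 stretch the tract runs on past the printed bases. Such a tract was also held by 6 of the 7 like-named genes with a promoter, or 85.7%, and the exception is shown as well. The corresponding stretch of Rpl10l, an intronless copy of Rpl10 that is known for its expression in testis, lies at chr12:66284372-66284441 on the minus strand and holds no such tract.
Rpl10l: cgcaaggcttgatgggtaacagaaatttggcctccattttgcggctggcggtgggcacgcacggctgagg

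Promoters were given for 34 of the 46 canonical genes. From 40 bases before to 50 after a listed start, on the strand of the gene, 31 of the 34 held such a tract, or 91.2%, against 40.8% of 27025 genes with a promoter and 41.1% of protein-coding ones. Rpl23, Rpl24 and Rplp0 did not. A tract that reached the listed start or lay after it was held by 27 of the 34, or 79.4%, against 25.7% of all genes. The word CCGGAAG, a core of sites bound by ETS factors such as GABP, was searched on both strands of the whole window of 250 bases before to 50 after the start. It was found in 14 of the 34, or 41.2%, against 9.93% of all genes. The word AAGATGGC, of sites bound by YY1, was in 3 of the 34, or 8.82%, against 3.19%. On the opposite strand CCGGAAG reads as a run of C and T followed by GG, and in Rpl34 and Rpl37 it shared bases with the tract. The 14 genes with CCGGAAG had a median log2 fold change of -0.32, and the other 20 one of -0.64. The matches describe letters in a window, and guide abundance was not tested against them.

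Rpl37a, eL43 in the uniform naming of ribosomal proteins, is a small zinc-binding protein of the subunit's core and lies on chromosome 1 from 72711260 to 72713813. The authors' deposited table gives it a log2 fold change of -2.51, which is 5.71-fold lower in MERVL-positive cells. All 6 of its guides were down, meaning past the table's guide threshold for negative change, a threshold that is loose, since 38.0% of guides of all genes were past it and 37.4% past that for positive change. Rpl37a had a depletion p of 0.00079 and rank 22 for depletion in the authors' deposited table. By log2 fold change it stood 11th from the lowest of all genes.

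Rpl27, on chromosome 11 from 101442245 to 101445596, encodes eL27, a gene of Diamond-Blackfan anaemia in humans. Its log2 fold change was -1.70 in the authors' deposited table, with a depletion p of 0.0074, 4 guides down and 2 up. Its guides thus lay on both sides. Rpl12, on chromosome 2 from 32961712 to 32964045, encodes uL11 at the base of the stalk. Nearer to 0, at a log2 fold change of -0.89, it had all 6 guides down in the authors' deposited table and a depletion p of 0.00755. Rpl15, on chromosome 14 from 18267823 to 18270986, encodes eL15, also a Diamond-Blackfan gene. Its values in the authors' deposited table were -1.14 with a depletion p of 0.00805, and 4 guides were down and 1 up.

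Rpl36, encoding eL36 on chromosome 17 from 56610094 to 56614246, stood at -0.70 on the log2 scale in the authors' deposited table. Down were 4 guides and up none, and its depletion p in the authors' deposited table was 0.0299. Rpl18, encoding eL18 on chromosome 7 from 45715467 to 45720835, stood at -1.28 in the authors' deposited table, with a depletion p of 0.0497 and 4 guides down against 2 up. Rpl34, encoding eL34 on chromosome 3 from 130726827 to 130730398, had the second-lowest value of the set, -2.35, on only 2 guides. Both were down, and its depletion p in the authors' deposited table was 0.049. Over all genes with 2 guides the SD of the log2 fold change was 0.821, against 0.456 over the 16270 genes with 6 guides, so the value of Rpl34 is less certain than those of the others.

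The stalk proteins carry the GTPase-associated centre. Besides Rpl12, the log2 fold changes in the authors' deposited table were -0.31 for Rplp1, -0.21 for Rplp2 and -0.14 for Rplp0, the scaffold that anchors the P1 and P2 dimers. By the guide numbers in the authors' deposited table, Rplp1 and Rplp2 each had 3 down and 1 up, and Rplp0 had 2 down and 1 up. The 4 stalk genes had a median of -0.26, and 39.6% of all genes lay below Rplp0.

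The 2 genes of the 5S RNP had values on opposite sides of 0. Rpl5, which encodes uL18, stood at -0.84 in the authors' deposited table, with 4 guides down against 1 up. Rpl11, which encodes uL5, had a value of 0.17 with 2 guides down and 2 up. Their depletion p-values in the authors' deposited table were 0.129 and 0.383. The difference between the genes was not tested, since each has 1 value.

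Proteins near the catalytic centre and along the path of the tRNA were all below 0. Rpl8, the uL2 protein that is among the most conserved of the ribosome, stood at -0.91 in the authors' deposited table, with 4 guides down against 2 up. Rpl10a, or uL1, which forms the mobile stalk where deacylated tRNA leaves, stood at -0.75 in the authors' deposited table, with 5 guides down against 1 up. The values in the authors' deposited table were -0.68 for Rpl10, the late-joining uL16, -0.60 for Rpl3, which reaches the peptidyl transferase centre, and -0.37 for Rpl36a, which contacts tRNA at the exit site. Their median was -0.68, and for none of the 5 was the depletion p in the authors' deposited table under 0.05.

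On the face towards the small subunit, Rpl23, or uL14, stood at -1.18 in the authors' deposited table, and 4 of its guides were down and none up. Rpl41, the shortest ribosomal protein, had a value of -1.02 on 4 guides, and Rpl24, the gene of the mouse belly spot and tail mutation, had one of -0.61 in the authors' deposited table. Rpl9, the uL6 protein near the factor-binding site, stood at -0.23 in the authors' deposited table, with 3 guides down against 2 up. The median of these 4 genes was -0.82, and their lowest depletion p in the authors' deposited table was 0.0678, for Rpl23.

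Genes for proteins of the exit tunnel and its rim lay on both sides of 0. Rpl39, a short protein in the tunnel wall, stood at -2.03 in the authors' deposited table, third-lowest of the set, from 5 guides of which 3 were down and 1 up. Its depletion p in the authors' deposited table was 0.13. Next came Rpl17 at -0.60, Rpl35 at -0.46, Rpl4 at -0.45 and Rpl31 at -0.063 in the authors' deposited table. The class also held 3 of the 4 canonical genes above 0 in the authors' deposited table, Rpl26 at 0.032, Rpl23a at 0.39 and Rpl19 at 0.45. Rpl23a, on chromosome 11, encodes the docking site of the signal recognition particle and had, in the authors' deposited table, 3 of 5 guides up against 1 down. Rpl19, on chromosome 11 from 98022003 to 98030493, had, in the authors' deposited table, 4 of 6 guides up against 2 down. The median of the 8 tunnel genes was -0.26.

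**Figure D2:**
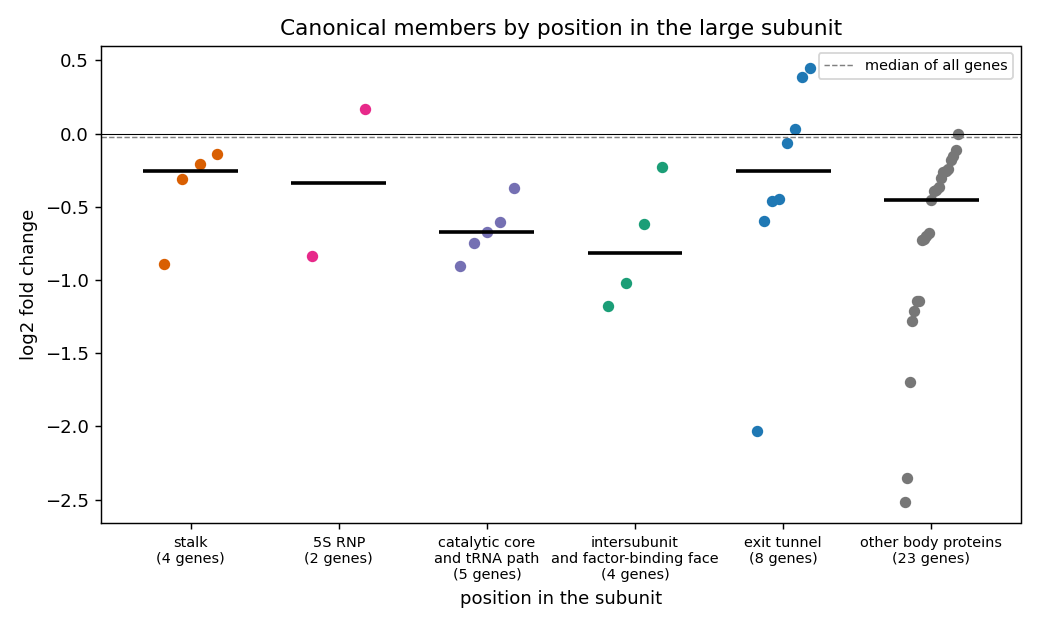
Points are the canonical genes by position in the subunit, with log2 fold change on the vertical axis and a black bar at the median of each class. The medians run from -0.82 on the intersubunit face to -0.26 in the exit tunnel and the stalk, the classes overlap, and tunnel proteins reach from -2.03 to 0.45.

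The other 23 canonical genes encode proteins of the subunit's body and outer shell. All 23 were below 0, with a median of -0.45, and 6 of them are among the 7 genes with an unadjusted depletion p under 0.05. Rpl37 at -1.21 and Rpl28 at -1.14 each had, in the authors' deposited table, 5 guides down against 1 up, and depletion p-values of 0.0621 and 0.0577. Rpl35a, the Diamond-Blackfan gene of eL33, also had 5 down and 1 up, at -0.73, and Rpl30 had 4 down and 2 up, at -0.72, in the authors' deposited table. Rpl29, whose loss mice are known to survive, stood at -0.68 in the authors' deposited table.

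Rpl22, whose loss mice are also known to survive with a defect in T cells, had a value of -0.45 with 3 guides down and none up in the authors' deposited table. Nearby were Rpl13a at -0.39, Rpl7a at -0.38, Rpl6 at -0.37, Rpl27a at -0.26, Rpl13 at -0.26 and Rpl7 at -0.24 in the authors' deposited table. Closest to 0 in this class were Rpl38, the gene of the mouse Tail-short mutation, at -0.18, Rpl14 at -0.15, Rpl32 at -0.11 and Rpl21 at -0.0036 in the authors' deposited table. The gene value and the deposited p did not always run together, since Rpl32 had a depletion p of 0.0763 and Rpl6 one of 0.0528 in the authors' deposited table, lower than that of Rpl5. Over the 46 genes, Spearman's rho between log2 fold change and depletion p was 0.76, a description of values that come from the same guides.

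Across the classes, the 18 universal genes, with bacterial counterparts, had a median of -0.45, and the 26 genes with no counterpart in the bacterial ribosome one of -0.65. Values below -1 were held by 1 of the 18 and by 9 of the 26. The 9 genes of Diamond-Blackfan anaemia listed for this comparison (Rpl5, Rpl11, Rpl15, Rpl18, Rpl26, Rpl27, Rpl31, Rpl35 and Rpl35a) had a median of -0.73, against -0.45 for the other 37. Their range of -1.70 to 0.17 lay within that of the others. These differences were not tested.

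The guides of 1 gene share a target and are not replicates, but their directions show how far each gene value rests on all of them. Of the 261 guides against canonical genes, 57.5% were down (exact binomial 95% interval 51.2 to 63.5, for counting error only) and 21.1% up (16.3 to 26.5) in the authors' deposited table. More guides down than up were found in 39 of the 46 genes, or 84.8%, against 41.5% of all genes, with as many in 5 and more up in 2, Rpl23a and Rpl19. Among the 35 canonical genes with 6 guides, 18 had 4 or more down, or 51.4%, against 15.5% of all genes with 6 guides. No guide up was found in 6 of these 35, or 17.1%, against 5.91%. Guides in opposite directions were found in 37 of the 46 genes. This is not particular to them, since most genes with 6 guides had guides both ways. Of all genes with 6 guides, only 5.84% had no guide down and 5.91% none up.

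**Figure D3:**
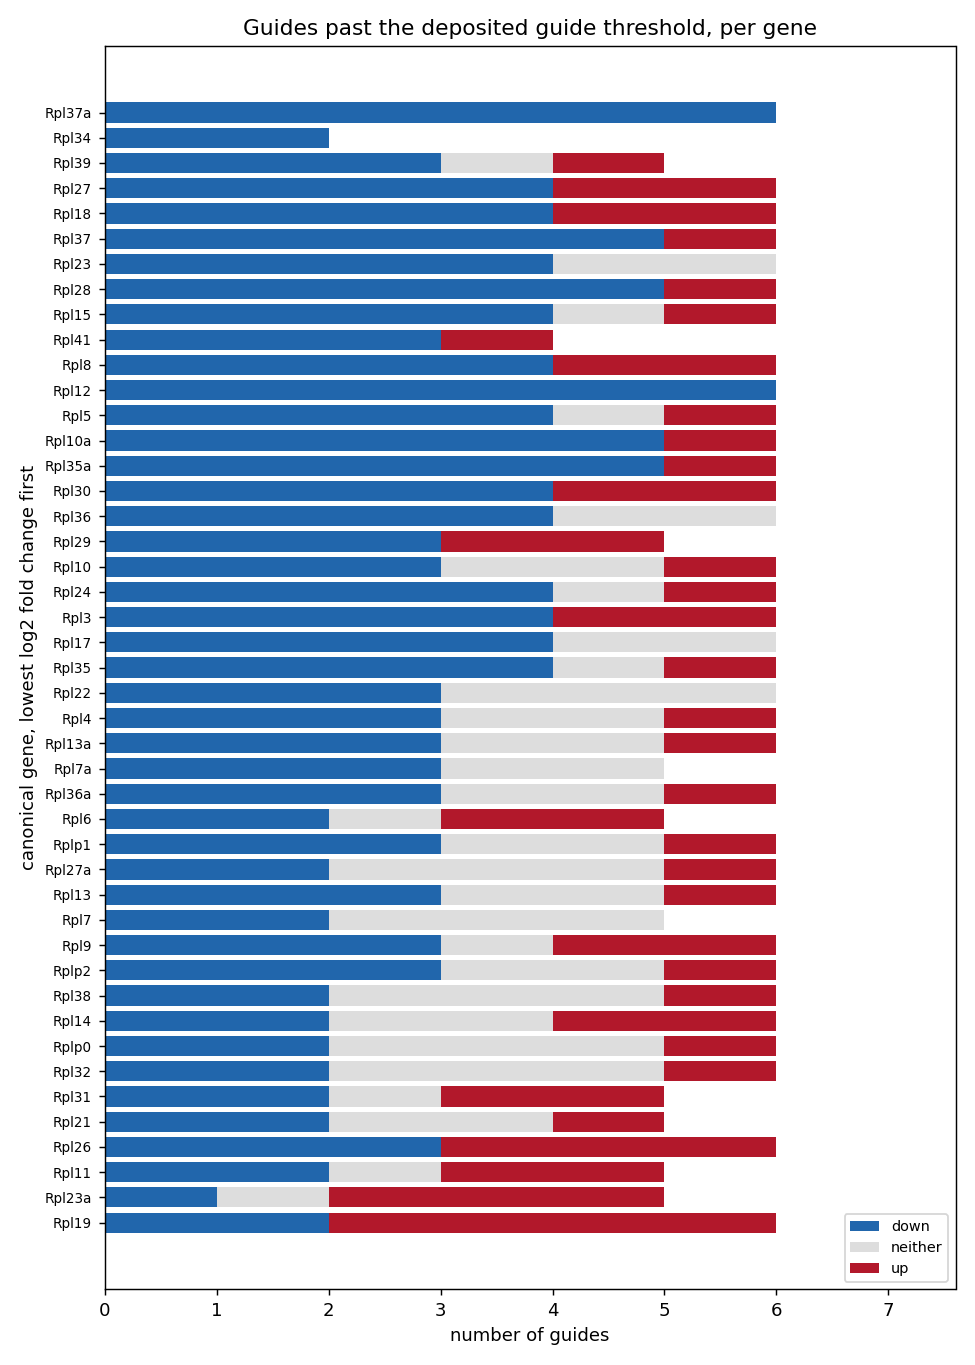
Each bar is 1 of 45 canonical genes, ordered from the lowest log2 fold change at the top, with the number of its guides that were down (blue), past neither threshold (grey) and up (red). Rpl37a and Rpl12 have all 6 guides down and Rpl34 both of its 2. Guides in both directions are held by 36 of the 45 genes drawn, as is common among all genes.

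Set against genes with the same number of guides, 9 of the 46 canonical genes lay below the 2.5th percentile, which is -1.05 for 6 guides. Below the 10th percentile, which is -0.63 for 6 guides, lay 18 of the 46, and above the 90th percentile none. The canonical genes thus reached from the lower tail of the distribution of all genes to Rpl19, with 87.3% of all genes below it.

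The 8 like-named genes are described singly, because their names say little about their function. Rpl7l1, a nucleolar relative of Rpl7 that acts in assembly of the large subunit, lies on chromosome 17 from 46773907 to 46782656. Rpl7l1 stood at -1.27 in the authors' deposited table, with 5 guides down against 1 up, a depletion p of 0.00358, a false discovery rate of 0.846 and rank 80 for depletion. Rpl10l stood at -0.54 in the authors' deposited table, with all 6 guides down, a depletion p of 0.00659 and the same false discovery rate as Rpl7l1. Rpl36al, whose protein is nearly identical to that of Rpl36a, had the lowest value of the 8, -1.34 in the authors' deposited table, with 5 guides down, none up and a depletion p of 0.103. Rpl3l, known from heart and skeletal muscle, had a value of -0.61 with 5 down and none up in the authors' deposited table.

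Rpl31-ps12 and Rpl34-ps1 are named as pseudogenes, although RefSeq lists both as protein-coding. They stood at -0.56 and at -0.44 in the authors' deposited table. Rpl39l, a testis-enriched copy of Rpl39, and Rpl22l1, a relative of Rpl22 that can take its place, were above 0. Their values in the authors' deposited table were 0.48 and 0.74, with enrichment p-values of 0.0689 and 0.159. The median of the 8 genes was -0.55.

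Beside its canonical gene, each like-named gene had its own value. As like-named minus canonical, the difference in log2 fold change was -0.013 for Rpl3l and 0.13 for Rpl10l. It was 1.19 for Rpl22l1, 1.91 for Rpl34-ps1 and 2.51 for Rpl39l, the widest of the 8 pairs. It was -1.03 for Rpl7l1, -0.97 for Rpl36al and -0.49 for Rpl31-ps12. The differences were not tested, since each gene has 1 value. Copies of high similarity can share guide targets, which could not be looked up without guide sequences, so the values of Rpl10l, Rpl36al, Rpl39l and the pair named as pseudogenes, and of their canonical genes, are uncertain.

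**Figure D4:**
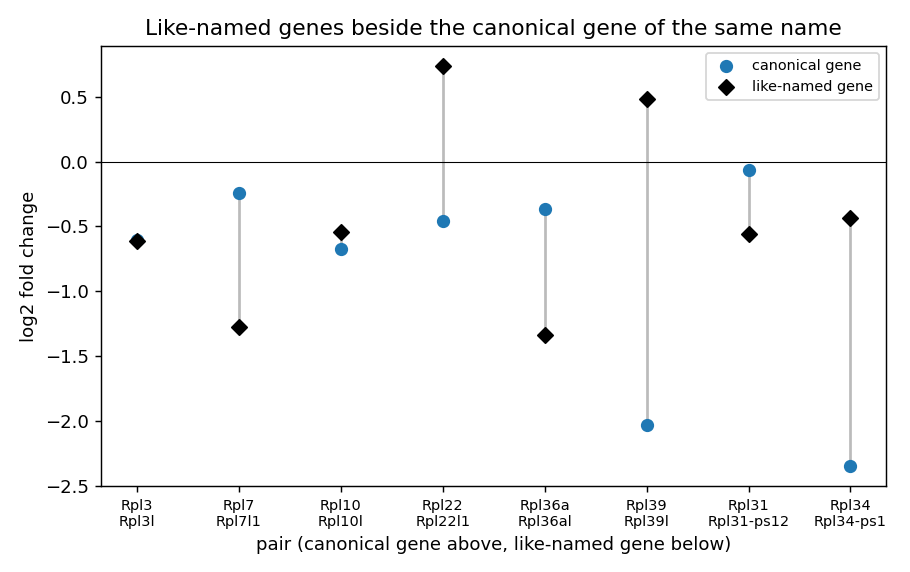
For each of 8 pairs, the circle is the log2 fold change of the canonical gene and the diamond that of the like-named gene. Rpl3l coincides with Rpl3 at -0.61 and -0.60, Rpl22l1 and Rpl39l lie above 0 while Rpl22 and Rpl39 lie below, and Rpl7l1 and Rpl36al lie lower than their canonical genes.

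Ribosomal protein genes have many processed pseudogenes, which guides against coding sequence can also cut. In RefSeq, 37 of the 46 canonical genes had pseudogenes carrying their name, 196 in all, with the most, 23, for Rpl31. The 15 genes with 5 or more had a median log2 fold change of -0.38, the 7 with 3 to 4 one of -0.37, the 15 with 1 to 2 one of -0.46 and the 9 with none one of -0.61. Spearman's rho between the number of named pseudogenes and the log2 fold change was 0.26 over the 46 genes, given as a description, and pseudogenes under other names were not counted. Of the 4 canonical genes above 0, Rpl19, Rpl23a and Rpl26 had 12, 13 and 6 named pseudogenes and Rpl11 had none. The part of pseudogene cutting in these values was not tested.

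In 20 of the 46 genes the RefSeq table places snoRNA genes within the gene's span, where introns of ribosomal protein genes are known to carry them. Their median was -0.42 and that of the other 26 genes -0.54. The canonical genes lay on 17 chromosomes. All 4 on chromosome 15 (Rpl37, Rpl8, Rpl30 and Rpl3) were at -0.60 or below, as were, among others, both on chromosome 16 and both on chromosome 17. Of the 6 on chromosome 11, 3 were below 0, or 50%, near the 52% of all genes. Differences between chromosomes were not tested.

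Other genes of the same machinery were set beside the large subunit genes. Small subunit protein genes had a median of -0.33 over 32 genes, with 27 below 0, or 84.4%, against 52% of all genes, and with 50.5% of guides down and 23.9% up. Of these 32, 2 had a depletion p in the authors' deposited table under 0.05, or 6.25%, near the 5.07% of all genes, and none had such an enrichment p, against 5.02%. The 2 were Rps15 at -1.04 and Rps4x at -0.31, whose depletion p-values in the authors' deposited table were 0.0377 and 0.017. The 10 factors of elongation, termination and recycling had a median of -0.26, with 7 below 0, or 70%, against 52% of all genes. Counted in this list is also Eif5b, an initiation factor, at -0.23 in the authors' deposited table. Among the 10, Eef2, the translocase that the stalk recruits, stood at -0.68 in the authors' deposited table, with a depletion p of 0.00692. It was the only 1 of the 10 with a depletion p under 0.05, or 10%, against 5.07% of all genes.

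Factors that assemble the 60S subunit, which is the large subunit itself, had a median of -0.074 over 63 genes, with 36 below 0, or 57.1%. Of their guides 37.1% were down and 37.4% up, near the shares of all genes. Depletion p-values in the authors' deposited table were under 0.05 for 4 of the 63, or 6.35%, and enrichment p-values for 3, or 4.76%, near the 5.07% and 5.02% of all genes. The 4 were Wdr74 at -0.78, Nop2 at -1.45, Rpf1 at -2.20 and Rsl1d1 at -0.84 in the authors' deposited table. The 3 for enrichment were Rbm28 at 0.44, Noc2l at -0.14 and Ppan at 0.73 in the authors' deposited table. The 47 mitochondrial large subunit genes had a median of -0.087, with 29 below 0, or 61.7%, against 52% of all genes. By p-values in the authors' deposited table, 2 lay under 0.05 for depletion, or 4.26%, and 3 for enrichment, or 6.38%, again near the shares of all genes. Those were Mrpl28 at -0.058 and Mrpl10 at -1.07 for depletion, and Mrpl19 at 0.97, Mrpl13 at 0.67 and Mrpl54 at 0.65 for enrichment, in the authors' deposited table.

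Of the MDM2-p53 axis, which the 5S RNP acts on, Mdm2 stood at -1.43 in the authors' deposited table, with a depletion p of 0.0356 and with 3 of its 4 guides down. The values in the authors' deposited table were -0.30 for Trp53, 0.17 for Mdm4 and 0.41 for Cdkn1a, the p53 target p21, none with a p under 0.05. Mdm2 was thus 1 of 4 genes, or 25%, against 5.07% of all genes. The median of the 4 was -0.062. Of their guides 36.4% were down and 40.9% up, against 38.0% and 37.4% for all genes. The differences between these lists and the large subunit genes were not tested.

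**Figure D5:**
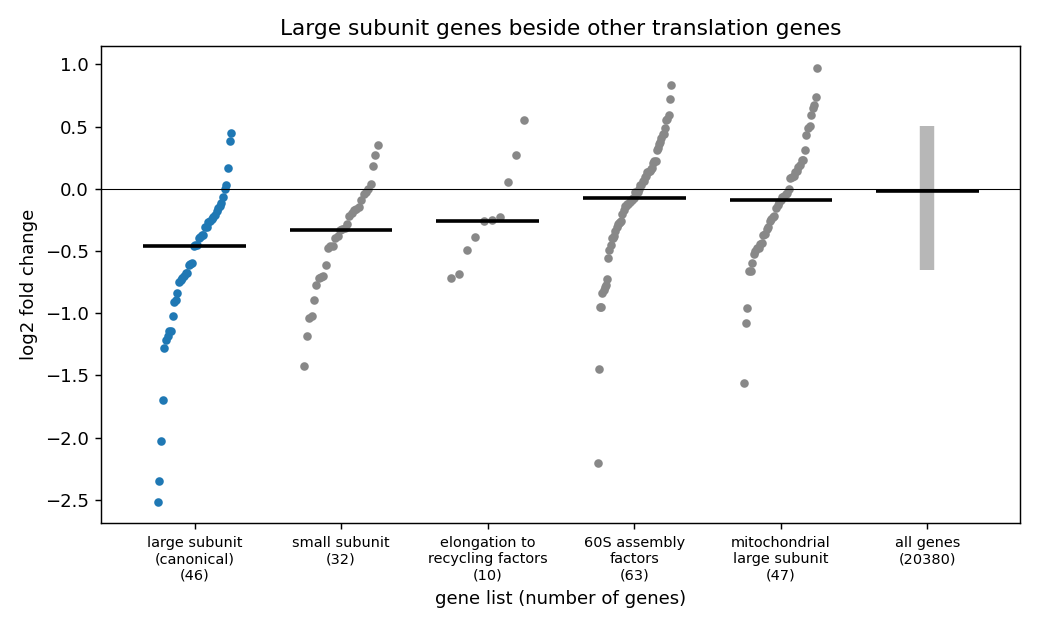
Points are genes of each list with their log2 fold change, black bars are medians, and the grey bar for all genes spans the 10th to 90th percentile. The median is -0.46 for the large subunit, -0.33 for the small subunit, -0.26 for elongation to recycling factors, -0.074 for assembly factors and -0.087 for the mitochondrial large subunit.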

How the data were processed

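Guide DNA from 2 MERVL-positive and 2 total libraries was compared by the authors. The submitters' processing notes name MAGeCK and mm10; for the version, settings, read normalization and numerator group, the sources used here give nothing. The authors deposited, per the file headers, a log2 fold change per entry, with identical values in 2 columns and base 2 taken from MAGeCK's convention. Each direction has a deposited p-value and false discovery rate, per the file headers, beside a score (taken as MAGeCK's rank aggregation score and not used here), a rank, and numbers of guides in all and past a guide threshold. The table has 22510 entries, of which 20380 are genes, 1132 microRNAs and 998 non-targeting guides. It was not recomputed, and no count model was fitted.

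Members, classes and lists were chosen with earlier results of these data known. Medians and counts were computed with Python 3.11.15, pandas 2.3.3 and SciPy 1.17.1, at a threshold of 0.05. The summaries were run on shuffled gene values with a constant added, which checks their arithmetic and not the screen. No set test was run. All 54 members matched the RefSeq table of GRCm38.p6 by symbol, which has the coordinates of mm10, and promoter sequences are RefSeq's in that build. Of 67 assembly factor names 63 were in the table, and the 4 not found are other names of genes that were found. Rps3a of the small subunit list was in the table as Rps3a1. Genes named in full were members with an unadjusted p under 0.05, the 5 lowest and 5 highest values, like-named, stalk and 5S RNP genes, and, from other lists, at most 5 per direction with an unadjusted p under 0.05. The table has no columns of values per library, so depth and its precision are unknown. Alternatives changed the guide minimum, the thresholds, the centre and the members. Counts and medians cover all 46 canonical genes, of which 1 is not reported singly here.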

Additional observations from a re-analysis of the deposited data

How the results depend on the processing

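The median log2 fold change of -0.46 over the canonical genes stayed below 0 under all 6 alternatives run. It was -0.62 as a mean, -0.45 over the 44 genes with 5 or more guides, -0.50 with like-named genes included, -0.53 without the stalk proteins, -0.44 as a difference from the median of all genes and -0.48 as a difference from non-targeting guides. The 7 genes whose depletion p in the authors' deposited table was under 0.05 became 4 at a threshold of 0.01, against 1.12% of all genes, and 17 at 0.1, against 10.2% of all genes. It was 6 over the 44 genes with 5 or more guides. With like-named genes included it was 9 of 54, or 16.7%, against 5.07% of all genes. The count of 0 for enrichment stayed 0 in the authors' deposited table at 0.01, against 1.07% of all genes, and at 0.1, against 9.96%. The counts past a false discovery rate of 0.25 were also 0 in either direction. For enrichment the lowest false discovery rate of all genes in the authors' deposited table was 0.827. Genes below 0 numbered 40 to 48 and guides down 56.9% to 58.6% over their alternatives. No paired analysis was possible because the table has no value per library, and for the same reason no replicate could be left out. Unknown depth and few sorted cells per guide limit single genes, and a gene without a call may still have an effect.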
